A study of Mus musculus with 76 samples.

Results

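Neutrophil recruitment was followed through 10 genes of the 55536 in the count table. They were chosen by name, with earlier results of these data known, and matched to the counts by gene identifier. The ligands were Cxcl1, Cxcl2, Cxcl3 and Cxcl5, the receptor was Cxcr2, the growth factor and its receptor were Csf3 and Csf3r, and the granulocyte products were S100a8, S100a9 and Retnlg.

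Neutrophils leave the marrow under granulocyte colony-stimulating factor, the product of Csf3, which acts through Csf3r on myeloid cells. CXC chemokines with an ELR motif, which are made by tumor, stromal and myeloid cells, then draw them into tissue through the receptor Cxcr2. In mice the 4T1 line is known for secreting granulocyte colony-stimulating factor and for filling blood and spleen with granulocytes.

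Bulk RNA was sequenced from 38 subcutaneous flank tumors of Balb/c mice, each as 2 technical replicate libraries. CT26, a colorectal carcinoma line (1000000 cells), and 4T1, a mammary carcinoma line (500000 cells), were used unmodified. 4T1-CAT cells carried catalase and GFP and 4T1-control cells carried GFP alone, each from a lentiviral doxycycline (DOX) inducible construct in a sorted pool of cells, so the transgene was limited to the tumor cells. According to the labels, cells were inoculated on day 0, DOX diet began on day 4 for the engineered lines, tumors were injected on day 6 with 20 ug CAT-ABP and 100 ug alum, or with alum, and tumors were taken on day 8. The study's own text places the diet, injection and harvest on later days. CAT-ABP is catalase joined to a peptide that binds alum, an injectable particle used to keep the enzyme in the tumor, and every tumor received alum. There were 7 groups. CAT-ABP + alum was given to 6 CT26, 6 4T1 and 5 4T1-CAT tumors. Alum was given to 5 tumors each of CT26, 4T1 and 4T1-CAT, and to 6 of 4T1-control. No group here held tumors without an injection.

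Summed over both libraries, tumors held between 493044 and 9077549 counts, with a median of 4827388. Single libraries held between 46233 and 6958626 counts. The technical replicate 1 libraries carried tags of 2 index sets, and each tumor was given the set of that library. The sets of the technical replicate 2 libraries were not used. All CT26 tumors and all 4T1 tumors given CAT-ABP + alum were in one set, all 4T1-CAT and 4T1-control tumors were in the other, and 4T1 alum tumors were split, with 3 in the second set and 2 in the first. In bulk RNA, fewer cells of a type and less RNA per cell cannot be told apart.

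The markers of neutrophils were detected unevenly in these tumors. Ly6g, a surface marker of mouse neutrophils, averaged 0.226 CPM (counts scaled to a common library size) over 38 tumors and was at 0 in 18 of them. Cxcr1, the other ELR chemokine receptor, averaged 0.0979 CPM and was at 0 in 26. Among granule genes of immature neutrophils, Elane was at 0 in 37 tumors, Camp in 34 and Ngp in 29. The 13 immature neutrophil markers summed to between 0 and 15.7 CPM per tumor. The 29 mature neutrophil markers summed to between 120.7 CPM in a CT26 alum and 1320 CPM in a 4T1-CAT alum tumor, and the highest means over all tumors were those of Slpi (459 CPM), Mmp9 (80.1 CPM) and Lcn2 (25.1 CPM), which other cells also express. S100a8, S100a9 and Cxcr2 were found in every tumor. The 10 genes are therefore described as genes, and their levels are not read as a number of neutrophils.

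In the GENCODE M21 annotation of GRCm38, the 4 ligand genes lie within 146579 bases of chromosome 5, between positions 90759360 and 90905938, all on the plus strand. Cxcr2 lies on chromosome 1 (74153989 to 74161246, plus strand), Csf3 on chromosome 11 (98701263 to 98703629, plus strand) and Csf3r on chromosome 4 (126024550 to 126044440, plus strand). S100a8 (90668978 to 90670035, plus strand) and S100a9 (90692632 to 90695721, minus strand) are neighbours on chromosome 3, and Retnlg lies on chromosome 16 (48872621 to 48874496, plus strand). No other annotated gene overlapped any of the 10. Cxcl1, Cxcl2 and Cxcl3 are close relatives, and reads near shared sequence could have been split between them in the authors' estimated counts.

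The last 120 bases before the start of Cxcl1, Cxcl2 and Cxcl3 are shown because these neighbouring chemokine genes hold the same short motif in the same stretch, while their levels ranked the 7 groups differently. The starts used here differ from those of GENCODE M21. The GENCODE starts of Cxcl1 (90891241) and Cxcl2 (90903871) lie inside the stretches shown, and that of Cxcl3 (90786103) lies after its stretch. Sequences are from RefSeq on GRCm38.p6, plus strand, 5′ to 3′, and capitals mark matches to the NF-kB-like motif GGNNTTTCC or its reverse complement GGAAANNCC.
Cxcl1, chr5:90891125-90891244: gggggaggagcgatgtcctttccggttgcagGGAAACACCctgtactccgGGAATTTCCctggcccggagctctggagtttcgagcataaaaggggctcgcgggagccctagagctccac
Cxcl2, chr5:90903779-90903898: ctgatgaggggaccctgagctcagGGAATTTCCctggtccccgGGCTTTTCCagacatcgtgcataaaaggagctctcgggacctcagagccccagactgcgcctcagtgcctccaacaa
Cxcl3, chr5:90785981-90786100: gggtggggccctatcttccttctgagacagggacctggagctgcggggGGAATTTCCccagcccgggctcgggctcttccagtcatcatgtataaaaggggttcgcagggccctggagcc

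Promoter windows of 300 bases, 250 before and 50 after the start, were searched on both strands for 8 of the 10 genes. No window was available for Cxcl5 and Csf3, which were not searched. GGNNTTTCC was in 3 of the 8, the 3 genes shown, and in 5.82% of all 32851 windows. TATAAA was in 3 of the 8 (Cxcl3, S100a8 and S100a9) and in 13.6% of all windows, and the C/EBP-like TTNNGNAAT was in 1 of the 8 (S100a9) and in 11.5% of all windows. The matches of these motifs did not overlap each other, and a match is a description of the sequence alone.

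Levels of each gene are given in CPM with the SD over tumors and are compared between groups, not between genes. For every one of the 10 genes, all 6 pairs of neighbouring groups in the order of mean levels overlapped. The span from the lowest to the highest group mean was 1.86-fold for Cxcl1, 5.83-fold for Cxcl2, 4.13-fold for Cxcl3, 3.57-fold for Cxcl5, 1.86-fold for Cxcr2, 2.34-fold for Csf3r, 2.48-fold for S100a8, 2.14-fold for S100a9 and 2.46-fold for Retnlg. The lowest means of Cxcl1, S100a8, S100a9 and Retnlg were in CT26 alum tumors, and those of Cxcl2, Cxcl3, Cxcl5, Cxcr2 and Csf3r were in 4T1-control tumors.

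**Figure D1:**
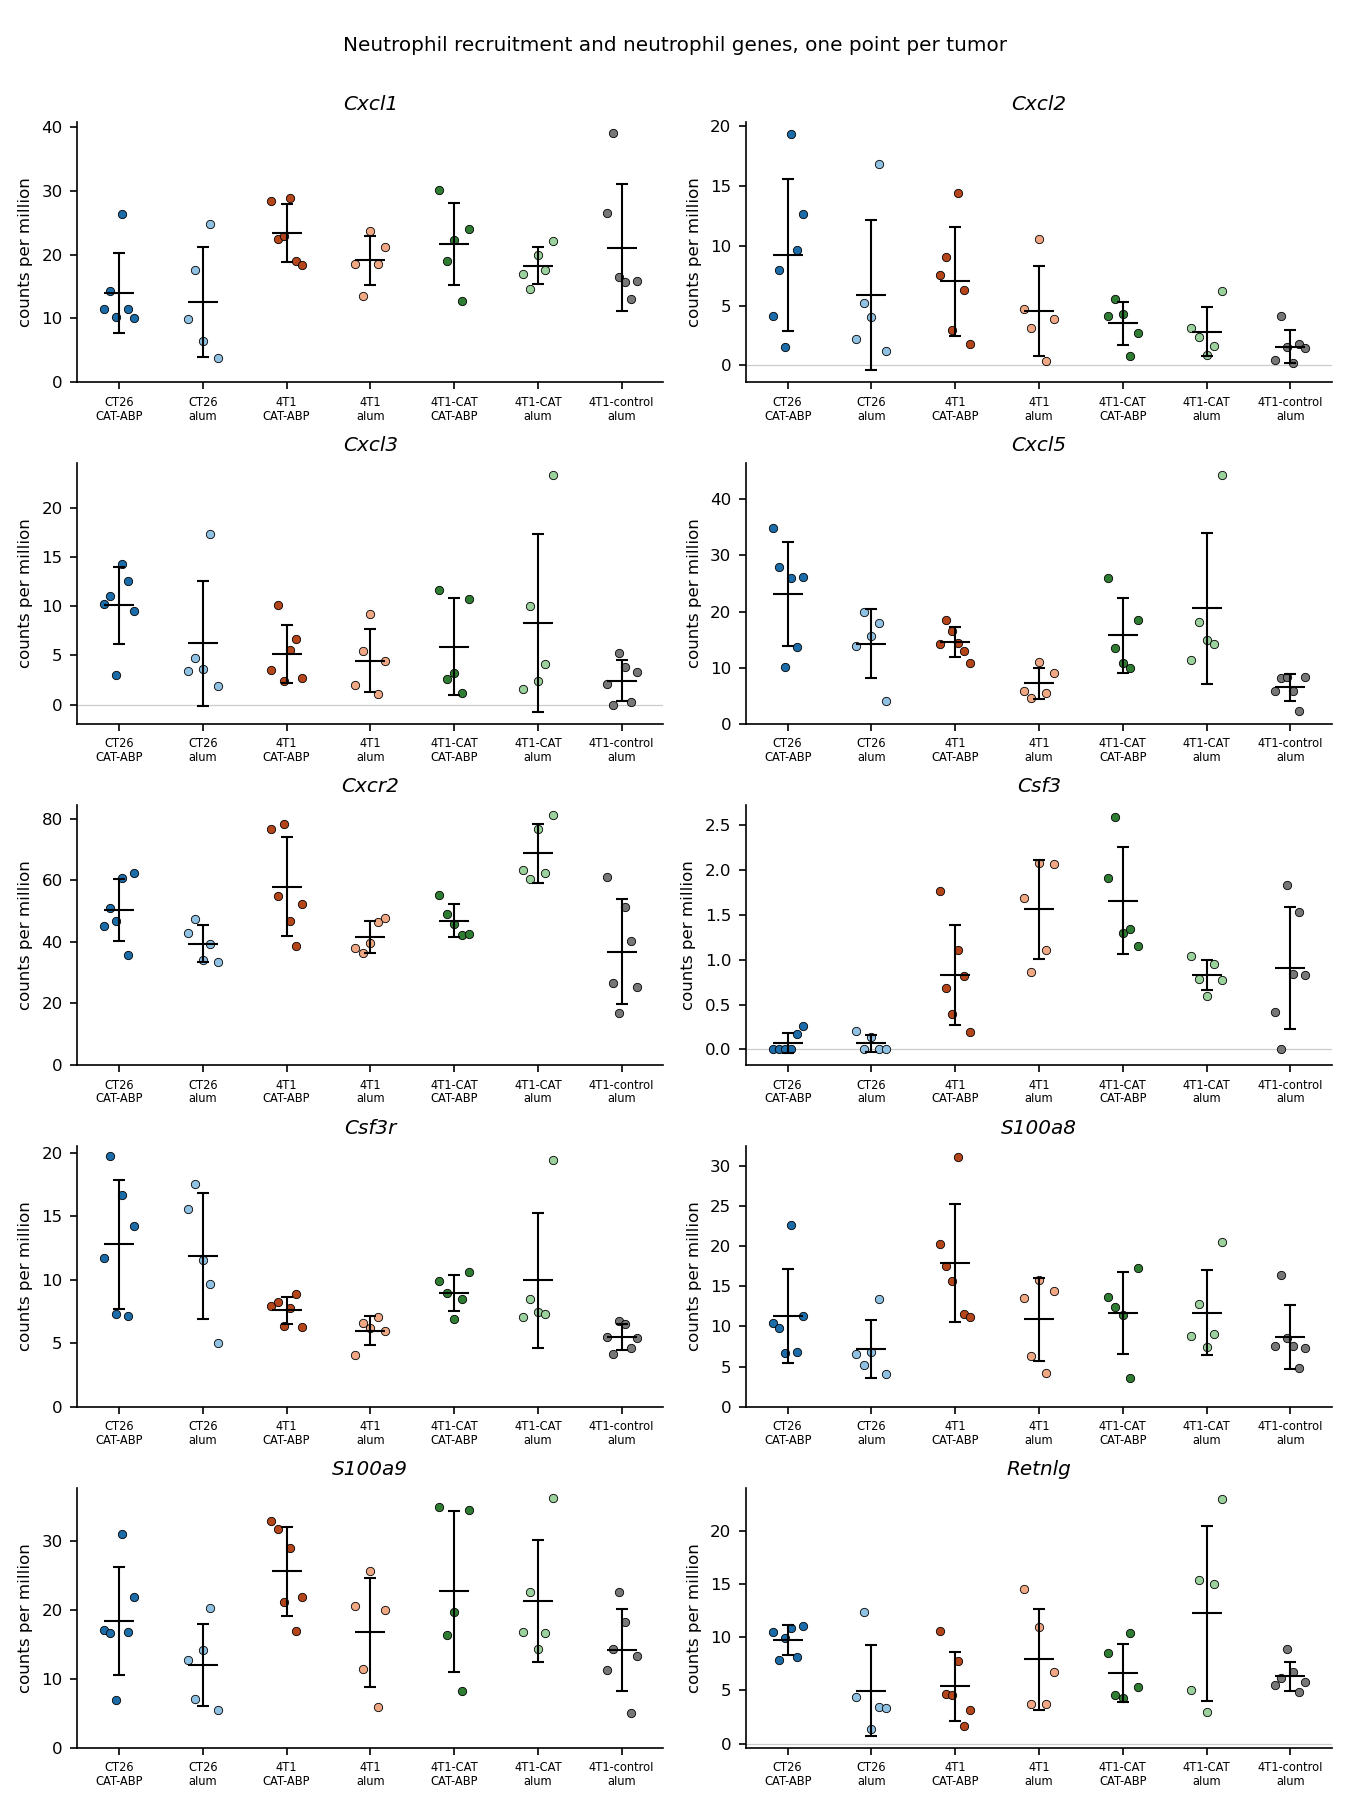
Level of each of the 10 genes in CPM (vertical axis, linear, each panel with its own scale) in the 7 groups, 1 point per tumor, with the mean and SD over tumors. Csf3 is near 0 in all 11 CT26 tumors, and Cxcr2 is above 60 CPM in all 5 4T1-CAT alum tumors.

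Among the ligands, Cxcl1, which is induced early by inflammatory signals, averaged 12.5 ± 8.59 CPM in CT26 alum tumors (SD, n = 5) and 19.1 ± 3.81 CPM in 4T1 alum tumors (SD, n = 5). Its highest group mean was 23.3 ± 4.52 CPM in 4T1 tumors given CAT-ABP + alum (SD, n = 6). Cxcl2, which is made largely by myeloid cells, had its highest mean in CT26 tumors given CAT-ABP + alum, at 9.24 ± 6.34 CPM (SD, n = 6). Its counts ran from 1 to 87 per tumor, so single values rest on few reads. Cxcl3 was likewise highest in CT26 tumors given CAT-ABP + alum, at 10.1 ± 3.89 CPM (SD, n = 6), and was at 0 counts in 1 4T1-control tumor.

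Cxcl5, an ELR chemokine made largely by epithelial and stromal cells, differed in level among the 4T1 lines. It measured 5.75, 4.60, 10.9, 5.56 and 9.06 CPM in 4T1 alum tumors. In 4T1-CAT alum tumors it measured 11.4, 18.1, 14.9, 14.2 and 44.3 CPM. In 4T1-control tumors the lowest was 2.30, the median 7.05 and the highest 8.32 CPM. Every 4T1-CAT alum tumor was above every 4T1-control tumor in summed counts, and 0.654% of all genes tested did not overlap between these groups in either direction. In technical replicate 1 alone Cxcl5 overlapped between them. Tumor 5 stood far above the other 4T1-CAT alum tumors.

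Cxcr2, the receptor for all 4 ligands, measured 63.2, 60.3, 76.7, 62.4 and 81.2 CPM in 4T1-CAT alum tumors. In 4T1-CAT tumors given CAT-ABP + alum it measured 55.2, 48.9, 45.7, 42.2 and 42.6 CPM. These groups did not overlap, and all 5 CAT-ABP tumors were lower. In 4T1 alum tumors it measured 37.9, 36.5, 39.6, 46.4 and 47.6 CPM. With CAT-ABP + alum in 4T1 the lowest was 38.7, the median 53.6 and the highest 78.2 CPM, so that 4 of 6 tumors were above all 5 alum tumors. In 4T1-control tumors the lowest was 16.8, the median 33.4 and the highest 61.0 CPM, the widest spread of any group for this gene.

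Csf3, the gene for granulocyte colony-stimulating factor, was detected at 0 or 1 count in each of the 11 CT26 tumors. Summed over tumors, CT26 held 2 counts with alum and 2 with CAT-ABP + alum. The 5 4T1 alum tumors held 5, 3, 11, 9 and 8 counts, or 1.69, 0.863, 2.08, 1.11 and 2.07 CPM. 4T1-CAT tumors held 11, 13, 6, 13 and 8 counts with CAT-ABP + alum, and 6, 4, 2, 6 and 2 with alum. Most tumors of the 4T1 lines were above the CT26 tumors for Csf3, on counts so low that it did not pass the filter of any comparison and has no fitted fold change here.

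Csf3r, the receptor for that factor, averaged 11.9 ± 4.96 CPM in CT26 alum (SD, n = 5) and 5.98 ± 1.15 CPM in 4T1 alum tumors (SD, n = 5). S100a8 and S100a9, whose products form the calprotectin complex of neutrophils and monocytes, averaged 7.21 ± 3.64 and 11.96 ± 5.92 CPM in CT26 alum tumors (SD, n = 5). In 4T1 tumors given CAT-ABP + alum they averaged 17.9 ± 7.38 and 25.6 ± 6.502 CPM (SD, n = 6), the highest group mean of each. Retnlg, a resistin-like gene of mature neutrophils, ran from 4.97 ± 4.26 CPM in CT26 alum to 12.2 ± 8.21 CPM in 4T1-CAT alum tumors (SD, n = 5 each). For S100a8, S100a9 and Retnlg every pair of neighbouring groups overlapped. For Csf3r the 4T1-CAT alum tumors lay above all 4T1-control tumors in summed counts, but not in either technical replicate alone. These groups did not overlap in either direction for 0.654% of all genes tested.

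The comparison of CAT-ABP + alum with alum asked how extracellular catalase altered each tumor model. In CT26, none of the tested genes was called as changed. All 9 fitted values were above 0, with a median log2 fold change of 0.62, where the median over all 12830 genes tested was 0.00. By the quasi-likelihood test of edgeR with Benjamini-Hochberg adjustment, 0 of 9 passed 0.05, as did 0% of all genes, and DESeq2 also called 0 of the 10. An unadjusted p under 0.05 was seen for 1 of 9, beside 2.42% of all genes. That gene was Retnlg, at 10.5, 7.86, 9.90, 10.9, 8.15 and 11.1 CPM with CAT-ABP + alum and 4.39, 12.3, 1.39, 3.42 and 3.32 CPM with alum. All 6 CAT-ABP tumors were above the alum median but below the highest alum tumor, and the log2 fold change of 1.11 (SE 0.40) had an adjusted p of 1.00 by edgeR's quasi-likelihood test. Cxcr2 had a log2 fold change of 0.34 in CT26, with a 95% interval from -0.02 to 0.70.

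With CAT-ABP + alum in 4T1, likewise, none of the 9 tested genes passed 0.05 by the quasi-likelihood test of edgeR with Benjamini-Hochberg adjustment. The share of all 13092 genes was 0%, and DESeq2 called 0 of 10. Cxcl5 and Cxcr2, 2 of 9, had an unadjusted p under 0.05, beside 2.88% of all genes. Cxcl5 had the 7th smallest p of all genes, with a log2 fold change of 0.99 (SE 0.24, edgeR quasi-likelihood adjusted p = 0.999). The CAT-ABP tumors ran from 10.8 to 18.5 CPM, and 5 of 6 were above the highest alum tumor. Within the index set that both groups shared, with only 2 alum tumors, the log2 fold change of Cxcl5 was 1.46. Cxcr2 had a log2 fold change of 0.47 (SE 0.17, edgeR quasi-likelihood adjusted p = 0.999), or 1.38-fold with a 95% interval from 1.08 to 1.77. The log2 fold change of Cxcr2 was 0.51 in technical replicate 1 alone and 0.23 in technical replicate 2 alone. The other 7 fitted values ran from -0.65 (SE 0.44) for Retnlg to 0.62 (SE 0.33) for S100a8.

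In 4T1-CAT, where both groups already carried intracellular catalase, the 9 tested genes again included none past 0.05 by the quasi-likelihood test of edgeR with Benjamini-Hochberg adjustment, against 0% of all 13093 genes. Of the 10, DESeq2 gave an adjusted p to Cxcr2 alone, and called it. It called 260 genes in all, where 29681 had an unadjusted p. At an unadjusted p under 0.05 by edgeR there was 1 of 9, again Cxcr2, beside 15.3% of all genes. Its log2 fold change was -0.56 (SE 0.13), or 0.679-fold with a 95% interval from 0.558 to 0.826, with an edgeR quasi-likelihood adjusted p of 0.187 and a DESeq2 adjusted p of 0.0114. By their technical replicate 1 libraries, all 10 tumors of this comparison were in 1 index set. The groups of Cxcr2 did not overlap, as was the case for 2.56% of all genes tested, and the two-sided exact permutation test gave p = 0.00794, the smallest that 5 against 5 tumors allow. Cxcr2 and this test were chosen with earlier results of these data known. Csf3, outside the tested genes, also did not overlap (two-sided exact permutation p = 0.00794), from at most 13 counts in a tumor. It ran from 1.15 to 2.60 CPM after CAT-ABP + alum and from 0.597 to 1.04 CPM after alum. In each technical replicate alone the Csf3 groups overlapped. Their means were 1.61 against 1.55 CPM in the first and 2.46 against 0.469 CPM in the second. S100a8 and S100a9 had log2 fold changes of 0.00 (SE 0.34) and 0.10 (SE 0.35), with 95% intervals from -0.73 to 0.73 and from -0.66 to 0.85.

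The gap in Cxcr2 between the 4T1-CAT groups was present in 1 of the 2 technical replicates. In technical replicate 1 the CAT-ABP tumors ran from 37.9 to 56.2 CPM and the alum tumors from 66.2 to 102.8 CPM, with no overlap and a log2 fold change of -0.85. In technical replicate 2 they ran from 39.8 to 70.0 and from 41.9 to 82.7 CPM, with overlap and a log2 fold change of -0.07. The counts behind these values were between 98 and 290 per library in the first replicate and between 11 and 255 in the second. Across all 38 tumors the technical replicates of Cxcr2 had a Pearson r of 0.31, where both values of a pair share the tumor and its RNA and the libraries differ in depth. For S100a9 that r was 0.71, for Cxcl3 0.68, for Cxcl5 0.57, for Csf3r 0.33, for Csf3 0.20 and for Cxcl1 0.05.

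**Figure D2:**
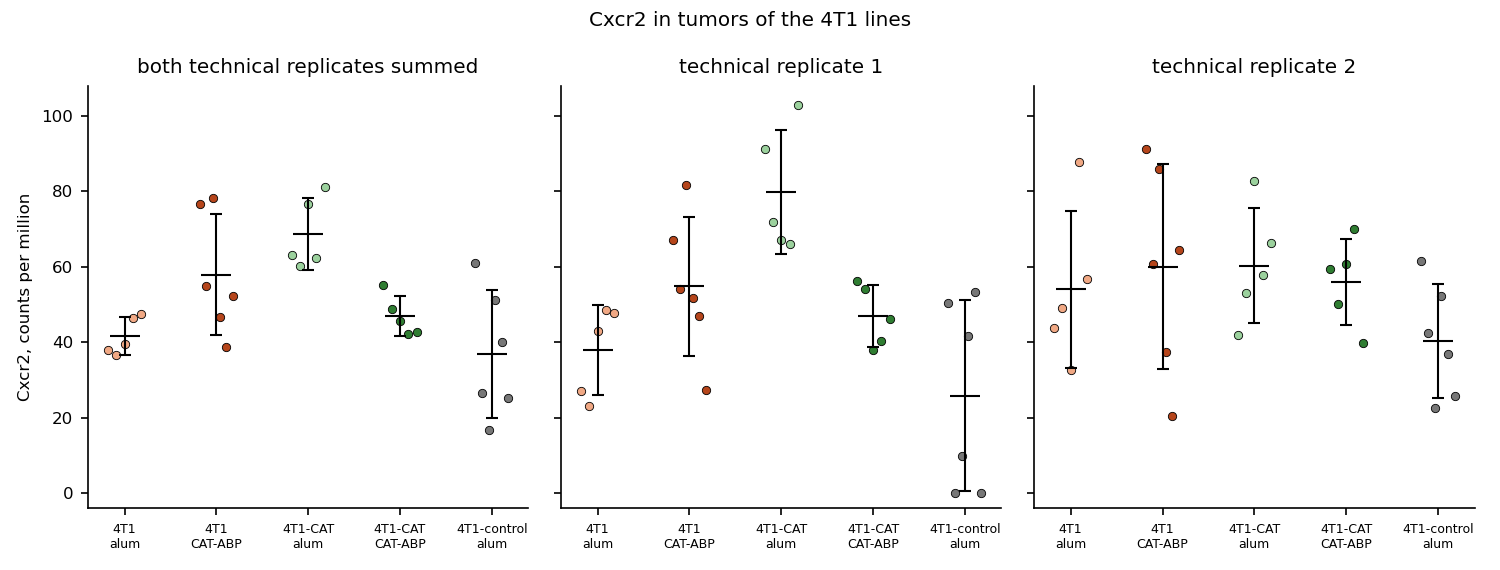
Cxcr2 in CPM (vertical axis, linear) in the 5 groups of 4T1-derived tumors, from summed counts and from each technical replicate alone, 1 point per tumor with the mean and SD. The 4T1-CAT groups lie apart in the summed counts and in technical replicate 1, and overlap in technical replicate 2, where the means are 60.3 and 56.0.

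The responses of 4T1-CAT and 4T1 to CAT-ABP were then compared directly, as the log2 fold change in 4T1-CAT minus that in 4T1, over 4 groups that share no tumor. 4T1-CAT differed from 4T1 in its construct, GFP and DOX diet as well as in catalase. No 4T1-control tumor was given CAT-ABP, so these cannot be told apart. By the quasi-likelihood test of edgeR with Benjamini-Hochberg adjustment, 0 of 9 genes passed 0.05, as did 0% of all 13851 genes, and DESeq2 called 0 of 10. At an unadjusted p under 0.05 there were 2 of 9, beside 8.79% of all genes. Cxcr2 had the smallest p of all genes tested: the responses differed by -1.03 (SE 0.23), with a 95% interval from -1.50 to -0.56, an unadjusted p of 0.000134 and an edgeR quasi-likelihood adjusted p of 0.529. Its response was chosen for this comparison with earlier results of these data known, so its rank and p are not those of a blind choice. Cxcl5 differed by -1.35 (SE 0.46, unadjusted p = 0.00734, edgeR quasi-likelihood adjusted p = 0.529). For Cxcr2 the value was -1.33 in technical replicate 1 alone and -0.32 in technical replicate 2 alone. With the index set as a block it was -1.18. For Cxcl1 the responses differed by 0.01, with a 95% interval from -0.57 to 0.59. The pathway lists held no gene past 0.05 in this difference: among the 5 other CXC chemokine and receptor genes tested, Cxcl12 (-1.44) and Ppbp (-1.73) had an unadjusted p under 0.05, as did 1 of 16 cytokine, 2 of 9 adhesion and 1 of 19 mature neutrophil genes, all with values below 0. Other markers below 0 at that level were 4 of 6 for mast cells and basophils (median -0.90), 2 of 4 for T and NK cells (median -1.03), 2 of 5 for fibroblasts, 2 of 6 for monocytes and 1 of 10 for macrophages, and 1 of 6 for monocytes was above 0. The part of these cells in the Cxcr2 difference was not tested.

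Intracellular catalase was examined as 4T1-CAT alum against 4T1-control alum, both on DOX diet. None of the 8 tested genes passed 0.05 by the quasi-likelihood test of edgeR with Benjamini-Hochberg adjustment. The share of all 12534 genes was 0%, and DESeq2 called 0 of 10. Csf3 and Cxcl2 did not pass the filter. Those with an unadjusted p under 0.05 numbered 5 of 8, all higher in 4T1-CAT, beside 5.08% of all genes. The median log2 fold change of the 8 was 0.78, and that of all genes was -0.01.

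Cxcl5 had the 10th smallest p of all genes in this comparison, with a log2 fold change of 1.64 (SE 0.38), or 3.13-fold with a 95% interval from 1.80 to 5.43, and an edgeR quasi-likelihood adjusted p of 0.477. The other 4 were Cxcl3, at 1.44 (SE 0.66), Retnlg, at 0.89 (SE 0.40), Cxcr2, at 0.83 (SE 0.25), and Csf3r, at 0.73 (SE 0.31), with edgeR quasi-likelihood adjusted p from 0.658 to 0.963. Cxcl5 and Csf3r did not overlap between the groups, 2 of 8 genes beside 0.654% of all genes, and each gave the smallest two-sided exact permutation p that 5 against 6 tumors allow, 0.00216. By single technical replicates, Csf3r overlapped in both. Cxcl5 overlapped in the first, where the highest 4T1-control value, 16.7 CPM, rested on 3 counts, and not in the second. Csf3r measured 7.08, 8.47, 7.46, 7.32 and 19.4 CPM in 4T1-CAT alum tumors, and the lowest, median and highest 4T1-control tumors were at 4.105, 5.44 and 6.73 CPM. Tumor 5 of the 4T1-CAT alum group was the highest of its group for Cxcl1, Cxcl2, Cxcl3, Cxcl5, Cxcr2, Csf3r, S100a8, S100a9 and Retnlg. Without it the log2 fold change of Cxcl5 was 1.17, and 2 genes in place of 5 had an unadjusted p under 0.05.

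This comparison shares its 4T1-CAT alum tumors with the one on CAT-ABP in 4T1-CAT, so the high Cxcr2 of those 5 tumors entered both. The value was 0.83 in the first and -0.56 in the second. Markers of all leukocytes (4 genes) summed to between 174 and 307 CPM in 4T1-CAT alum and between 146 and 195 CPM in 4T1-control tumors, with 2 of the 4 at an unadjusted p under 0.05 and none past 0.05 after adjustment. Among the 16 tested mature neutrophil markers, 3 were higher and 1 was lower at an unadjusted p under 0.05, and the list summed to between 753 and 1320 CPM in 4T1-CAT alum and between 681 and 1178 CPM in 4T1-control tumors. Other markers higher in 4T1-CAT at that level were 3 of 4 for T and NK cells (median log2 fold change 0.94), 3 of 5 for fibroblasts, 2 of 6 for monocytes, 1 of 9 for macrophages, 1 of 4 for mast cells and basophils and 1 of 1 for eosinophils, and 1 of 5 for epithelial tumor cells was lower. The part of these cells in the fitted values was not tested.

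**Figure D3:**
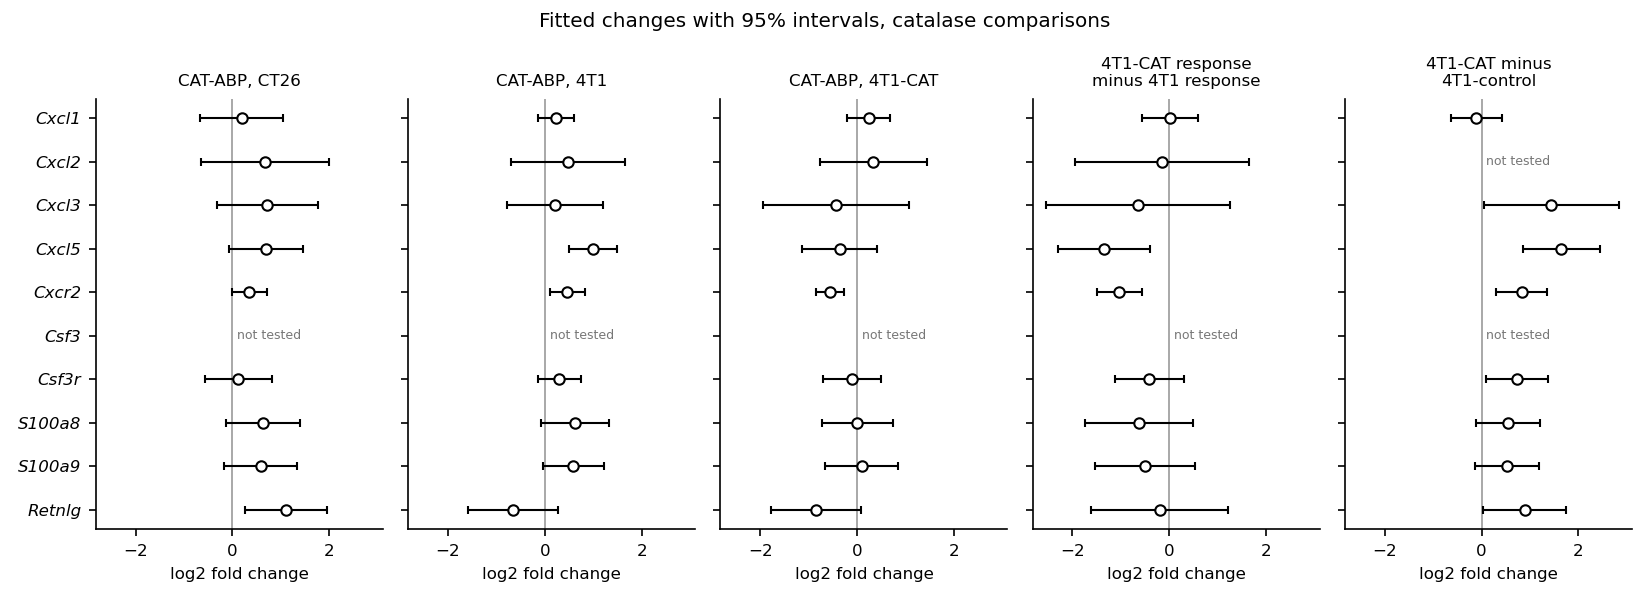
Log2 fold change (horizontal axis) with its 95% interval, for the genes that passed the filter (Csf3 is marked as not tested throughout, and Cxcl2 in 4T1-CAT against 4T1-control), in the comparisons of CAT-ABP + alum with alum in CT26, 4T1 and 4T1-CAT, the difference between the 4T1-CAT and 4T1 responses, and 4T1-CAT against 4T1-control. All points are open because none passed an adjusted p of 0.05. Cxcr2 lies at 0.47 in 4T1 and at -0.56 in 4T1-CAT.

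Tumor models were compared as CT26 minus 4T1, once among alum tumors and once among tumors given CAT-ABP + alum, which share no tumor with each other but use the groups of the CAT-ABP comparisons. With alum, 2 of 9 tested genes differed by the quasi-likelihood test of edgeR with Benjamini-Hochberg adjustment, where 42.4% of all 12817 genes did. Both were higher in CT26, as were 21.3% of all genes, and none was among the 21.1% of genes that were lower. Csf3r was higher by 0.97 (SE 0.29, edgeR quasi-likelihood adjusted p = 0.0150), and 4 of 5 CT26 tumors were above all 4T1 tumors. Cxcl5 was higher by 0.98 (SE 0.35, edgeR quasi-likelihood adjusted p = 0.0348). CT26 alum tumors were at 13.8, 19.9, 15.6, 18.0 and 4.03 CPM of Cxcl5, of which 4 were above every 4T1 alum tumor and 1 was below all of them. Within the index set that both models shared, with 2 4T1 tumors, neither gene passed 0.05, with log2 fold changes of 1.11 for Csf3r and 1.43 for Cxcl5. The 2 of 9 genes called were a smaller share than the background of all genes.

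With CAT-ABP + alum, 5 of 9 genes differed between CT26 and 4T1, where 45.5% of all 13016 genes did by the quasi-likelihood test of edgeR with Benjamini-Hochberg adjustment. Cxcl3 (0.96, SE 0.36), Retnlg (0.94, SE 0.34), Csf3r (0.75, SE 0.25) and Cxcl5 (0.65, SE 0.25) were higher in CT26, 4 of 9 beside 21.8% of all genes, and the 5 of 9 called in either direction were close to the background. Cxcl1 was lower by 0.73 on the log2 scale (SE 0.24), 1 of 9 beside 23.7%. The edgeR quasi-likelihood adjusted p lay between 0.0184 for Cxcl1 and 0.0436 for Cxcl5. By their technical replicate 1 libraries, all tumors of this comparison were in 1 index set. Cxcl1 ran from 10.02 to 26.3 CPM in CT26 with a median of 11.5, and from 18.4 to 28.9 CPM in 4T1, so that 5 of 6 CT26 tumors lay below every 4T1 tumor. S100a8 and S100a9 had log2 fold changes of -0.60 (SE 0.31) and -0.48 (SE 0.27), neither past 0.05. Cxcr2 did not pass the test in either comparison of models, with 95% intervals from -0.37 to 0.24 with alum and from -0.63 to 0.16 with CAT-ABP + alum.

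Several of these calls moved when 1 tumor was left out. With alum, Cxcl5 lost its call without CT26 tumor 1, 2, 3 or 4, or 4T1 tumor 1, 2 or 4, with edgeR quasi-likelihood adjusted p from 0.0520 to 0.0925, and Csf3r kept its call without each tumor in turn. With the replicate number as a block, Cxcl5 was not called with alum (adjusted p = 0.0617) or with CAT-ABP + alum (adjusted p = 0.0781). With CAT-ABP + alum, Cxcl3 lost its call without CT26 tumor 1, 2, 4, 5 or 6, or 4T1 tumor 1, 3 or 6 (adjusted p from 0.0520 to 0.0905), and Cxcl5 without CT26 tumor 1, 2, 4 or 6, or 4T1 tumor 1, 5 or 6 (0.0646 to 0.115). Retnlg lost its call without CT26 tumor 1, 4 or 6, or 4T1 tumor 6 (0.0523 to 0.0570), and Csf3r without CT26 tumor 2 (0.0552). Cxcl1 kept its call without each tumor in turn, and no called gene changed direction.

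**Figure D4:**
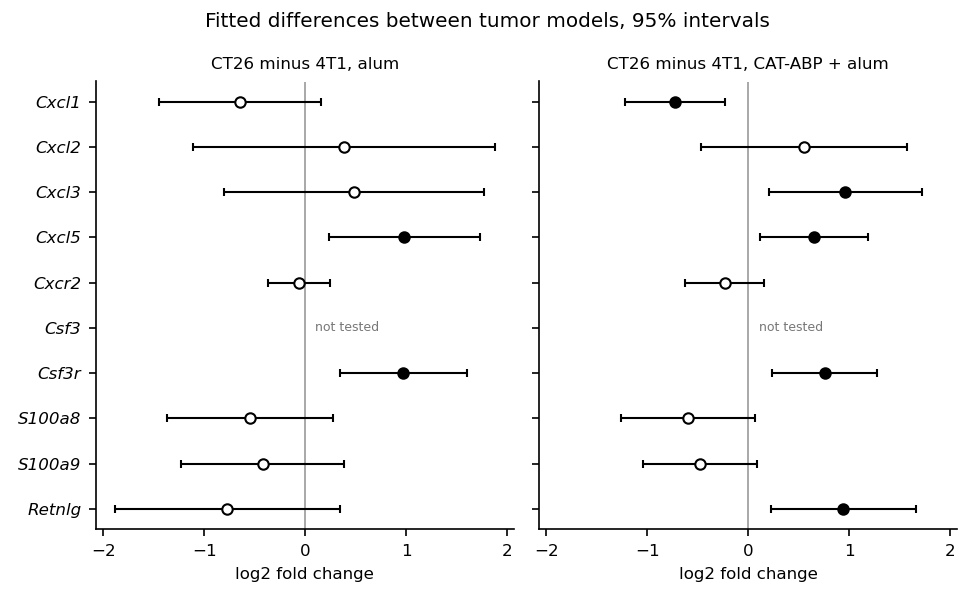
Log2 difference between CT26 and 4T1 tumors (horizontal axis) with its 95% interval for 9 genes, with Csf3 marked as not tested, with alum and with CAT-ABP + alum. Filled points passed an adjusted p of 0.05, which were Cxcl5 and Csf3r with alum and Cxcl1, Cxcl3, Cxcl5, Csf3r and Retnlg with CAT-ABP + alum.

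Csf3 was the member with the widest gap between models. Pooled over tumors, the rate of Csf3 counts was 19.5 times higher in 4T1 than in CT26 with alum (36 against 2 counts, 95% exact interval of the ratio from 5.03 to 167) and 16 times higher with CAT-ABP + alum (26 against 2 counts, interval from 4 to 139). These intervals cover counting error only. The 4T1 alum tumors were all above the CT26 alum tumors, as in 29.5% of tested genes with no overlap in either direction, and the two-sided exact permutation test gave p = 0.00794, the smallest possible. DESeq2, which set no such filter, gave adjusted p of 0.000979 with alum and 0.00636 with CAT-ABP + alum. By group means, Csf3 was lower in CT26 and its receptor gene Csf3r was higher.

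The wider pathway was described in the same comparisons of models by 3 lists of genes. Of 9 tested adhesion genes, 5 were higher in CT26 with alum and 6 with CAT-ABP + alum, and none was lower, where 21.3% and 21.8% of all genes were higher and 21.1% and 23.7% lower. Among them was Selp, an adhesion gene of endothelium and platelets, at 2.79 (SE 0.28) and 2.37 (SE 0.22). Of 15 upstream cytokine genes, 2 were higher and 3 lower with alum, and 1 was higher and 3 lower with CAT-ABP + alum. Il23a, a subunit of interleukin-23, was lower by 5.06 (SE 0.30) and by 5.26 (SE 0.25) on the log2 scale. Of the 4 other CXC chemokine and receptor genes tested, Cxcl12 and Ackr3 were higher in CT26 in both comparisons and none was lower. The medians of all genes were 0.02 and -0.02.

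The mature neutrophil markers split in both directions between models. With alum, 8 of 16 tested were higher in CT26 and 6 lower, and with CAT-ABP + alum, 6 of 18 were higher and 8 lower. These counts and those of the other markers stand beside 42.4% of all genes that differed with alum and 45.5% with CAT-ABP + alum. Higher were the receptors Fpr2 (3.14, SE 0.34, with alum) and Clec4d (1.95, SE 0.30), and Acod1 (4.45, SE 0.44), the enzyme that makes itaconate. Lower were Padi4 (-6.55, SE 0.52), which citrullinates histones, Slpi (-3.84, SE 0.34), a protease inhibitor also made by epithelium, Mmp9 (-3.20, SE 0.24), a gelatinase, and Lcn2 (-1.84, SE 0.38), a siderophore-binding protein. Markers of epithelial tumor cells moved with them, 5 of 5 lower in CT26 in both comparisons. The 4 markers of all leukocytes included 3 that were higher in CT26, with sums from 243 to 603 CPM in CT26 alum and from 160 to 214 CPM in 4T1 alum tumors, and 4 of 6 monocyte markers were higher and 1 lower. T and NK cell markers were higher in CT26 for 5 of 5 in both comparisons, and fibroblast markers were lower for 4 of 5 and higher for 1. Of 10 macrophage markers, 2 were higher and 1 lower with alum, and 4 were higher and 1 lower with CAT-ABP + alum. For mast cells and basophils, 2 were higher and 1 lower of 4 with alum, and 3 and 1 of 6 with CAT-ABP + alum. Endothelial markers were lower for 1 of 4 and 2 of 4. Epidermis had 1 of 2 lower with alum, and 1 higher and 1 lower of 2 with CAT-ABP + alum. Eosinophils had 1 gene tested, with CAT-ABP + alum, which was higher, and of the immature neutrophil list 1 gene was tested there and did not pass. The part of tumor cell type and leukocyte number in the differences of Csf3r and Cxcl5 was not tested.

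In the comparisons of CAT-ABP with alum, and of 4T1-CAT with 4T1-control, the 3 pathway lists and the mature and immature neutrophil lists held no gene past 0.05 by edgeR's quasi-likelihood test. An unadjusted p under 0.05 was given by 4 such genes in 4T1, beside 2.88% of all genes, all higher with CAT-ABP + alum: Cxcl12 (0.70), Il1b (0.40), Acod1 (0.98) and Lrg1 (1.052). In 4T1-CAT there were 2, beside 15.3% of all genes, both lower, Selplg (-0.61) and Lrg1 (-0.85), and in CT26 there was Fpr1 (-1.25), beside 2.42%. For 4T1-CAT against 4T1-control, beside 5.08% of all genes, 2 of 4 CXC genes, 1 of 15 cytokine genes, 1 of 8 adhesion genes and 3 of 16 mature neutrophil markers were higher at that level, and 1 of the 16 was lower. The numbers tested in the CXC, cytokine, adhesion and mature neutrophil lists were 4, 15, 8 and 16 in 4T1, 5, 16, 8 and 17 in 4T1-CAT and 5, 15, 10 and 15 in CT26.

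The 4T1-control and 4T1 alum tumors were compared to see what the control construct with DOX diet and GFP shifted. Of 9 tested genes, 0 passed 0.05 by the quasi-likelihood test of edgeR with Benjamini-Hochberg adjustment, as did 0% of all 12431 genes. DESeq2 gave none of the 10 an adjusted p, so it could call none of them. At an unadjusted p under 0.05 there was 1 of 9, beside 10.5% of all genes. That was Cxcl2, lower in 4T1-control with a log2 fold change of -1.84 (SE 0.65, edgeR quasi-likelihood adjusted p = 0.315), on 1 to 7 counts per 4T1-control tumor. Cxcr2 had a log2 fold change of -0.12 with a 95% interval from -0.61 to 0.37. In technical replicate 1, 2 of the 6 4T1-control libraries, both among the 7 under 518752 counts, had 0 counts of Cxcr2, and the second libraries of the same tumors had 13 and 122. The 4T1 alum tumors are also the reference for CAT-ABP in 4T1, and the 4T1-control tumors that for 4T1-CAT, so these comparisons are not independent.

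Across the 38 tumors, pairs of members differed in how closely they tracked each other. S100a8 and S100a9 had a Pearson r of 0.87 on log2 CPM, and 0.84 after each group's mean was removed. Cxcl5 had r of 0.80 with Csf3r and 0.61 with S100a9, and Cxcl2 had r of 0.66 with S100a8. Cxcr2 had r of 0.30 with S100a8 and 0.28 with S100a9, and these were 0.08 and 0.00 after group means were removed. Its highest r with a member was 0.44, with Cxcl5, or 0.11 after group means were removed. Between its own technical replicates Cxcr2 had r of 0.31, and the part of this in its r with other genes was not tested. These are descriptions over 38 tumors that share library depth, groups and normalization, with no test.

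**Figure D5:**
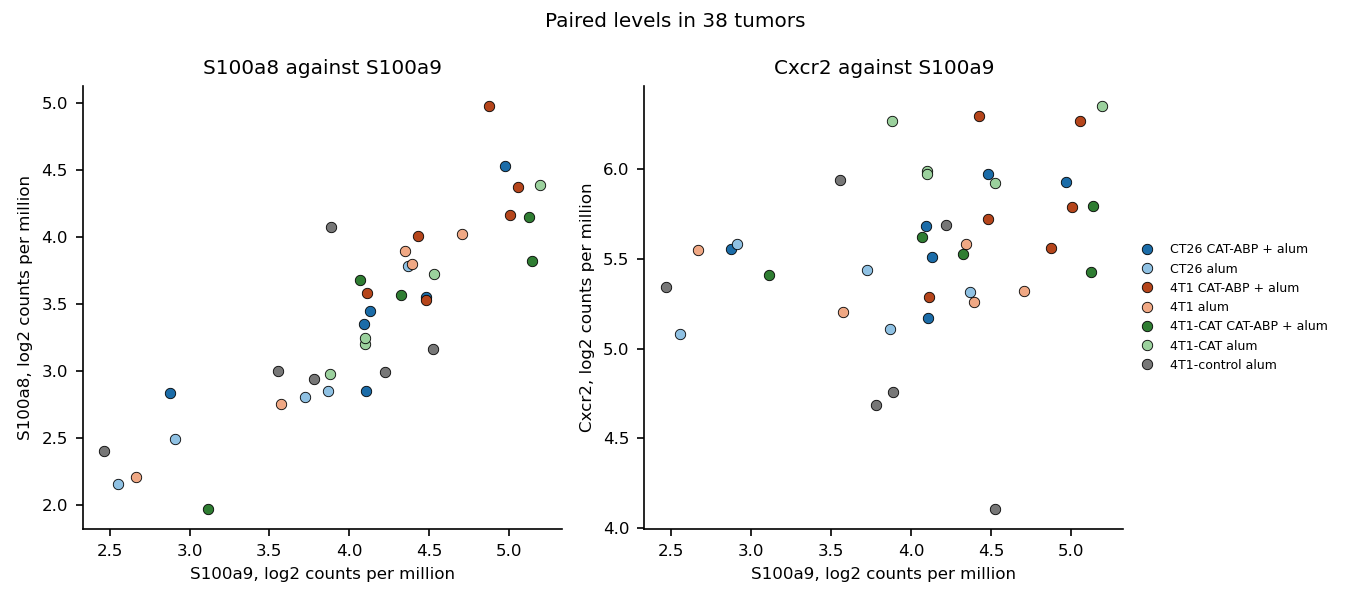
S100a8 against S100a9 (left) and Cxcr2 against S100a9 (right), in log2 CPM, 1 point per tumor in 38 tumors, colored by group. The S100a8 points follow S100a9, with r of 0.87, and the Cxcr2 points scatter, with r of 0.28.

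The genes most like each member, among 11276 with a mean of at least 20 counts, were named by Pearson r of log2 CPM over the 38 tumors. For Cxcr2 they were Flt3 (0.63), Cd209a (0.61) and Serpina1b (0.61), of which Flt3 and Cd209a are known from dendritic cells. For S100a8 they were Hp (0.68), which encodes haptoglobin, Mmp12 (0.67) and Tnip3 (0.61), and for S100a9 Hp (0.71), Il1r2 (0.65) and Mmp12 (0.60). For Cxcl5 they were the acute-phase gene Saa3 (0.88), Chl1 (0.83) and Adamts5 (0.83). For Csf3r they were Lcp1 (0.85), a leukocyte actin-bundling protein, Tnfrsf1a (0.84) and Pdpn (0.84). Cxcl1 was most like Smim1 (0.72), Mcpt8 (0.70) and Dclk1 (0.70), and Cxcl2 most like Ccl3 (0.65), Il1rn (0.62) and Hmox1 (0.61). Cxcl3 was most like Angptl4 (0.72), Mllt3 (0.70) and Ackr3 (0.70), and Retnlg most like Pf4 (0.63), Selenop (0.60) and Rnase2a (0.60). After group means were removed, Cxcr2 and Flt3 had r of 0.50, Cxcl5 and Saa3 0.83 and Csf3r and Lcp1 0.84.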

How the data were processed

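The authors made libraries by HT3DGE (a modified SCRB-seq) from polyA RNA and converted reads to counts with the Smart-seq2 pipeline on Terra. The deposited values are estimated counts per gene and library, without normalization (39.7% of non-zero values are not whole). Strand and UMI handling are not given in the sources used here. The study excluded some unnamed technical replicates for low depth, and all libraries were kept here.

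The 2 libraries of each of 38 tumors (46233 to 6958626 counts per library) were summed and rounded. Groups followed the labels, which number tumors as biological replicates, and p-values measure the spread between these tumors. Genes passing filterByExpr were TMM normalized, and the quasi-likelihood test of edgeR was run on the 2 groups compared, with Benjamini-Hochberg adjustment at 0.05 over all genes tested, and differences of responses as an interaction over 4 groups. CPM used TMM over all tumors and, on the log2 scale, a prior count of 2. Permutation tests were exact and two-sided, on log2 CPM. The fit was tested on simulated data with large planted changes in genes with a mean of at least 20 counts. That test does not cover smaller changes or genes with lower counts. Alternatives were DESeq2, RLE normalization, no filter, a mean of 20 counts, 1 model over 7 groups, a block for the replicate number, a single technical replicate, leaving out 7 libraries under 518752 counts, and each tumor left out in turn. The index set as a block and the shared index set alone were added after seeing the data. A tumor's index set was that of its technical replicate 1 library.

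The 10 members, the 15 lists and the tests were chosen with earlier results of these data known. Named were all 10 members, from the lists, at most 5 genes that passed in each direction and comparison, and the 3 genes most like each member with a mean of at least 10 counts. Members of the lists with an unadjusted p under 0.05 were named after their values were seen. Of the lists' genes, BC100530 was not matched. Software was edgeR 4.0.16, DESeq2 1.42.0 and limma 3.58.1 under R 4.3.3, with Python 3.11.15 and pandas 2.3.3. Gene positions are from GENCODE M21. A gene of the adhesion list is not reported by name here.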

Additional observations from a re-analysis of the deposited data

Results flagged for a closer look

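In 6 of 70 combinations of gene and group, 1 tumor lay apart from the rest of its group by Dixon's test at 95%, which flags about 1 in 20 groups by chance. Cxcl1 was at 26.3 CPM in CT26 CAT-ABP + alum tumor 4, where the others ran from 10.02 to 14.2 CPM. Cxcl3 was at 2.97 CPM in CT26 CAT-ABP + alum tumor 3, where the others ran from 9.49 to 14.2 CPM. Cxcl5 was at 4.03 CPM in CT26 alum tumor 5 (others from 13.8 to 19.9 CPM) and at 2.30 CPM in 4T1-control tumor 5 (others from 5.87 to 8.32 CPM), the latter on 9 counts. Csf3r was at 19.4 CPM in 4T1-CAT alum tumor 5, where the others ran from 7.08 to 8.47 CPM. S100a8 was at 3.50 CPM in 4T1-CAT CAT-ABP + alum tumor 4, where the others ran from 11.4 to 17.4 CPM.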

How the results depend on the processing

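Counts were low for Csf3 (at most 13 per tumor) and Cxcl2 (median 14.5), which limits what can be seen for them. Most fold changes kept their direction and side of the threshold. The cause of those that did not was not tested, apart from the fewer tumors in settings that leave some out.

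In 4T1-CAT given CAT-ABP, DESeq2 called 1 member, Cxcr2 (log2 fold change -0.57), the only member to which it gave an adjusted p. For 4T1-CAT against 4T1-control, 2 members passed without a filter. Between models with alum, the members called were 1 with the replicate block, 1 and 1 in technical replicates 1 and 2 alone, and 0 with the index set as a block or within the shared set (both chosen after seeing the data), and from 1 to 2 with a tumor left out. With CAT-ABP they were 2 with all 7 groups in 1 model, 1 and 3 in technical replicates 1 and 2, and from 2 to 5 with a tumor left out. For 4T1-control against 4T1, 1 passed without a filter.

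Same-numbered tumors deviated together (r over 0.1) in at most 3 of 5 pairs, with r from -0.61 to 0.63. Differently numbered tumors were not compared, so whether replicate numbers pair the tumors was not tested. The replicate block gave 6 members for models with CAT-ABP, with S100a8 and S100a9 gained and Cxcl5 lost, lost Cxcl5 with alum, and turned S100a8 (-0.0897) and S100a9 (-0.0143) in 4T1-CAT, and the Cxcl1 difference (-0.0708).

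Other values that changed sign lay mostly near 0. In 4T1-CAT, S100a8 was -0.0246 by DESeq2, -0.0145 with RLE, -0.0016 at a mean of 20 counts, -0.0479 in technical replicate 1 and -0.0032 without low-depth libraries. In 4T1, Csf3r was -0.21 in technical replicate 2. For 4T1-CAT against 4T1-control, Cxcl1 was 0.33 in technical replicate 1 and 0.0187 without low-depth libraries. Between models, Cxcr2 with alum was 0.28 in technical replicate 1, 0.0797 with the index block and 0.0697 in the shared set, and with CAT-ABP 0.0322 in technical replicate 1. For 4T1-control against 4T1, Cxcl1 was -0.0181 without a filter, -0.47 in technical replicate 1, -0.12 without low-depth libraries, -0.12 with the index block and -0.0848 in the shared set, Csf3r was 0.0203 without low-depth libraries and S100a9 0.0196 in technical replicate 1. For the difference, Cxcl1 was -0.0148 by DESeq2, -0.0104 with RLE, -0.0004 at a mean of 20 counts, -0.0092 over 7 groups, -0.11 in technical replicate 2, -0.0092 without low-depth libraries, -0.24 with the index block and -0.23 in the shared set. Cxcl2 was 0.69 in technical replicate 1, and Retnlg 0.47 in technical replicate 2, 0.0373 with the index block and 0.0464 in the shared set.

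With each tumor left out, fold changes that crossed 0 ranged as follows. CAT-ABP in CT26 gave Cxcl1 from -0.10 to 0.63 and Csf3r from -0.0824 to 0.28, and in 4T1 Cxcl3 from -0.14 to 0.71. In 4T1-CAT, Cxcl3 ran from -0.83 to 0.35, Cxcl5 from -0.61 to 0.11, Csf3r from -0.22 to 0.26, S100a8 from -0.20 to 0.28 and S100a9 from -0.10 to 0.36, where Cxcl3, Cxcl5 and Csf3r were above 0 without 4T1-CAT alum tumor 5. For 4T1-CAT against 4T1-control, Cxcl1 ran from -0.23 to 0.0353. Between models with alum, Cxcl2 ran from -0.54 to 1.04, Cxcl3 from -0.39 to 0.97 and Cxcr2 from -0.14 to 0.0013. For 4T1-control against 4T1, Cxcl1 ran from -0.13 to 0.12, Cxcl5 from -0.30 to 0.043, Cxcr2 from -0.30 to 0.0463, Csf3r from -0.15 to 0.0208, S100a9 from -0.41 to 0.0319 and Retnlg from -0.45 to 0.0591. For the difference, Cxcl1 ran from -0.15 to 0.15, Cxcl2 from -0.82 to 0.24, Cxcl3 from -1.15 to 0.13 and Retnlg from -0.51 to 0.23. The Cxcr2 difference ran from -1.15 to -0.92.

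Over all genes, no gene passed in the catalase comparisons by edgeR in its main setting. CT26 had 1 by DESeq2 and 1 without a filter, and 4T1 had 16 without a filter. 4T1-CAT had 260 by DESeq2, 47 without a filter and 3 with the replicate block. 4T1-CAT against 4T1-control had 131 without a filter, and the difference 1. 4T1-control against 4T1 had 28 by DESeq2, 130 without a filter, 10 over 7 groups, 14 without low-depth libraries and 1 in the shared set. Between models, technical replicate 2 alone gave 2849 in place of 5434 with alum and 3559 in place of 5928 with CAT-ABP.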

Other observations

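An index tag was listed for the second technical replicate of both 4T1-CAT alum tumor 2 and 4T1-CAT alum tumor 3, although the library identifiers gave different tags. The counts of these libraries differed, with totals of 3457267 and 2236736 and equal values in 457 of the 15783 genes above 0 in both. Cxcr2 was at 53.0 and 82.7 CPM in them.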
